A study of Mus musculus with 5 samples.

Results

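The 31 genes described here encode proteins that copy DNA in S phase or supply what copying needs, together with E2f1 and Clspn, which regulate it. They were chosen as a list by gene symbol, matched whole or as a comma-separated part of a feature name, and all 31 were found among the 38166 features of the KSL tables and the 34315 features of the granulocyte tables. Their transcripts were measured in 5 libraries made from the polyA RNA of C57BL/6 mouse cells and sequenced. Of the 3 KSL libraries, 1 came from cells carrying the LncHSC-1 knockdown virus, 1 from cells carrying the LncHSC-2 knockdown virus and 1 from cells carrying the control knockdown virus. The 2 granulocyte libraries came from sorted Gr1+ bone marrow cells of 12-month-old mice and are technical replicates of 1 biological replicate, so they were averaged and count as n = 1.

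KSL cells are the c-Kit+, Sca-1+ and lineage-negative fraction of bone marrow, which holds blood stem cells and early progenitors. All 3 KSL groups share the same history before sorting. Sca-1+ cells were taken from mice injected with 5-FU, transduced with a retrovirus that marks them with GFP, and kept for 2 days in medium with 10 ng/ml mSCF and 100 ng/ml mTPO. The KSL libraries therefore describe cells that had been stimulated to grow in culture, in the control group too. The labels do not say which features of the tables correspond to the targeted RNAs, nor the age of the injected mice, and so no knockdown level is reported. There was 1 library per KSL group, so every difference between them is a difference between 2 libraries, and no p-value is given.

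Before S phase the origin recognition complex, Cdc6 and Cdt1 load the ring of Mcm2 to Mcm7 onto replication origins, a step called licensing. Cdc45 and the GINS complex then turn the loaded ring into the working helicase, polymerase alpha with primase starts each strand, and the clamp Pcna, placed by the RFC loader, holds the main polymerases on DNA. Ribonucleotide reductase and thymidylate synthase supply the building blocks, and many of these genes are switched on together by E2F transcription factors when cells enter the cycle. Granulocyte precursors divide in the bone marrow and stop before they mature, whereas stem cells at rest are drawn into the cycle by 5-FU injury and by cytokines. 5-FU itself acts in part by blocking thymidylate synthase, the product of Tyms.

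Every member was covered by many reads in the KSL libraries. The KSL libraries held an estimated 24145600 reads for LncHSC-1, 19934925 for LncHSC-2 and 21018469 for control, and a member had between 629 and 16341 reads in them. The granulocyte libraries had scaled count totals of 40414961 and 40394825, and a member had a scaled count between 61 and 2778. Such scaled counts do not give the number of reads. Markers of the labelled cell types were present, beside markers of other types. All 12 stem and progenitor markers were at 5 FPKM or more in each KSL library, where FPKM is fragments per kilobase of transcript, scaled for sequencing depth. Of all KSL features 24.0% had a mean of at least 5 FPKM. In the control library 5 of 14 mature and 5 of 8 immature granulocyte markers also reached 5 FPKM. So did 5 of 9 monocyte and macrophage, 4 of 10 B lineage and 5 of 11 red cell markers. In granulocytes all 14 mature granulocyte markers reached 5 FPKM, as 17.7% of all features did, with S100a9 at 60707 FPKM. Of the stem and progenitor markers 1 did, Kit at 5.64 FPKM (named after its value was seen). Immature granulocyte, monocyte and macrophage markers were present there too and are given below.

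Every member was well expressed in the KSL cells. The lowest was Cdc6, the loader that recruits the helicase ring to origins, at 11.6 FPKM in the LncHSC-1 library, 13.5 under LncHSC-2 knockdown and 13.5 in the control library. The highest was Pcna, the sliding clamp, at 240.3, 286 and 278 FPKM in the same order. The median member stood at 59.8 FPKM in the LncHSC-1, 65.3 in the LncHSC-2 and 64.6 in the control library, and the median percentile of the members was 95.9, 96.2 and 96.2 in the same order, among the 34309 symbols that both kinds of table hold. Members kept nearly the same order from library to library. Across the 31 genes, which are not independent replicates and share the same library preparation, the log2 levels of the LncHSC-1 and the control library had a Pearson correlation of 0.983, and those of the LncHSC-2 and the control library one of 0.990.

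**Figure D1:**
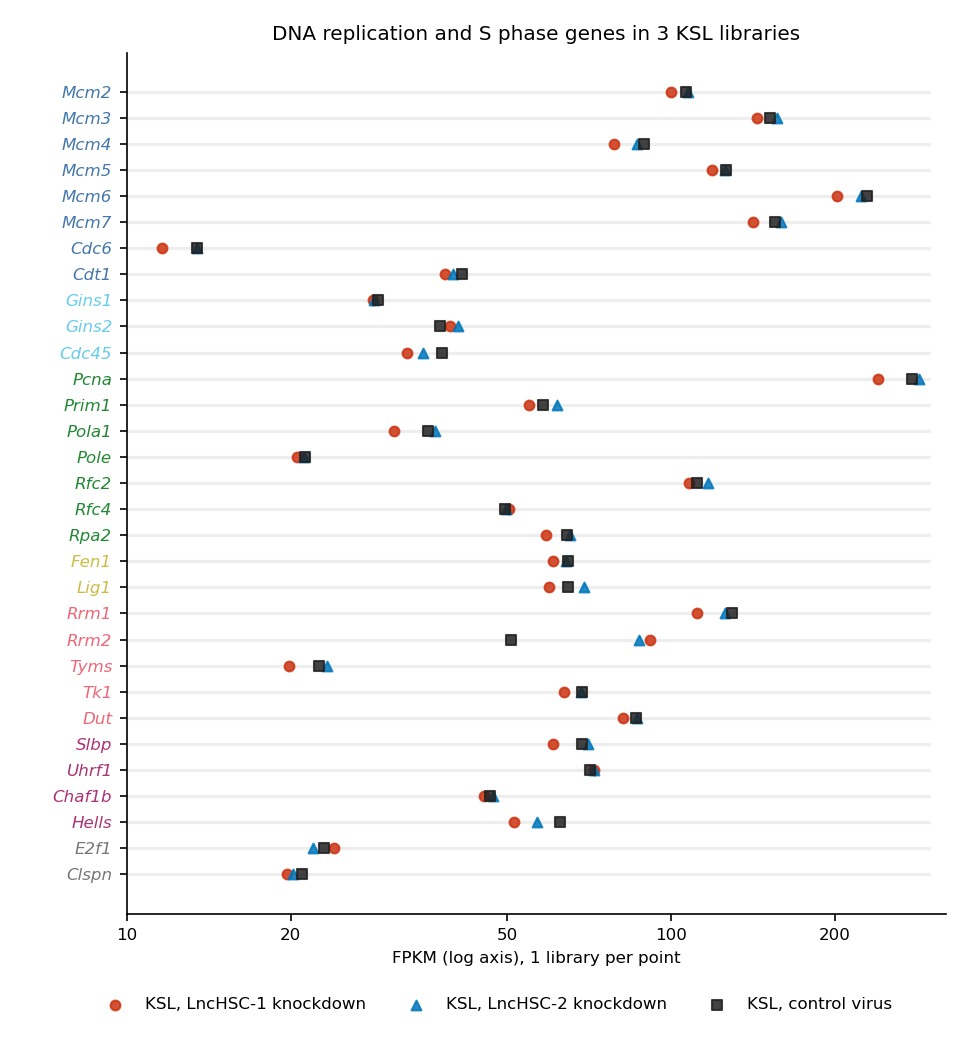
FPKM of each of the 31 genes on a log axis, with 1 point per KSL library; gene names are coloured by role as licensing, helicase activation, polymerases with clamp and RPA, Okazaki maturation, nucleotide supply, chromatin and histone mRNA, and regulators. The LncHSC-1 point lies furthest left for 26 of the 31 genes, and Rrm2 is the gene whose control point lies apart, at 50.9 FPKM against 91.5 and 87.3.

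The LncHSC-1 library held slightly less transcript of most S phase genes than the control library. Of the 31 members 26 were below control and 5 above, with a median log2 ratio of FPKM + 1 of −0.10, whereas 56.1% of the 9153 features with a mean of at least 5 FPKM were below control and the median of all of them was −0.02. The differences were small. No member was lower by 0.32 or more on the log2 scale, as 2.13% of all features were, 1 was higher by that much, as 3.7% of all features were, and none reached 2-fold in either direction, against 1.06% of all features. Pooled over the 31 genes, 158858 reads under LncHSC-1 knockdown against 146441 in the control library gave a log2 ratio of −0.10 (exact binomial 95% interval −0.11 to −0.09), and −0.13 (−0.14 to −0.12) without Rrm2. Read ratios were divided by the relative depth that the FPKM values imply, the median ratio of reads per FPKM, which was 1.17 here. With the ratio of total estimated reads, 1.149, in its place, the pooled value was −0.083 (−0.093 to −0.072) and the median of all features 0.00. Such an interval speaks of counting error alone, for this pair of libraries.

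All 8 licensing genes were below control in the LncHSC-1 library, with log2 ratios between −0.20 and −0.08. Mcm6, the most abundant subunit of the helicase ring, was at 202 FPKM under LncHSC-1 knockdown and 229 in the control library (log2 ratio −0.18). Mcm4 was at 78.7 against 89.2 FPKM (−0.18), and Mcm7 at 142 against 156 FPKM (−0.14). These were the largest differences in the ring. Mcm2 was at 100.0 against 107 FPKM (−0.09), Mcm5 at 119 against 126 FPKM (−0.09) and Mcm3 at 144 against 152 FPKM (−0.08). The counting interval of the read ratio lay below 0 for each of the 6. Cdc6 stood at −0.20, and Cdt1, its partner in loading the ring, was at 38.4 against 41.2 FPKM (−0.10).

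The genes of the fork followed with a wider spread. Pcna was at 240.3 FPKM under LncHSC-1 knockdown and 278 in the control library (−0.21, interval of the read ratio −0.25 to −0.16). Pola1, the catalytic subunit of polymerase alpha, was at 31.02 against 35.7 FPKM (−0.20, −0.26 to −0.15). Its partner Prim1, the primase that makes the RNA primer, stood closer, at 54.8 against 58.2 FPKM (−0.08, −0.17 to 0.00). Cdc45 was at 32.7 against 37.9 FPKM (−0.21, −0.32 to −0.14), whereas the GINS subunits that join it in the helicase lay near control, Gins1 at −0.03 and Gins2 at 0.06, each with an interval that includes 0. Rpa2, a subunit of the protein that coats single-stranded DNA, was at −0.13, and Pole, the catalytic subunit of polymerase epsilon, at −0.04. The clamp loader subunits Rfc2 and Rfc4 were at −0.05 and 0.02. Fen1 and Lig1, which trim and seal Okazaki fragments, were at −0.10 and −0.11.

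Hells, a chromatin remodeller needed for DNA methylation, was the member furthest below control. It was at 51.4 FPKM under LncHSC-1 knockdown against 62.6 in the control library (chromosome 19, 39005480 to 39042767 in mm9, plus strand; −0.28, −0.34 to −0.22). That placed it at percentile 3.17 of all 9153 ratios. Slbp, which binds the stem-loop of histone mRNA, was at 60.7 against 68.6 FPKM (−0.17). Uhrf1, which brings the maintenance methyltransferase to newly copied DNA, and Chaf1b, which deposits histones behind the fork, lay near control at 0.02 and −0.04. E2f1 was at 24.0 against 23.05 FPKM (0.06, −0.04 to 0.17), and Clspn, a checkpoint adaptor at the fork, was at 19.7 against 21.0 FPKM (−0.09).

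In the nucleotide supply group 4 genes were below control and 1 well above it. Rrm1, the large subunit of ribonucleotide reductase, was at 112 FPKM under LncHSC-1 knockdown against 130 in the control library (−0.21). Tyms was at 19.8 against 22.5 FPKM (−0.18), Tk1, the thymidine kinase of S phase, at −0.11, and Dut, which removes dUTP from the nucleotide pool, at −0.07. Rrm2, the small and rate-setting subunit of ribonucleotide reductase, went the other way and is described below with all 3 libraries.

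In the LncHSC-2 library the members lay on both sides of control. Of the 31 members 14 were below and 17 above control, with a median of 0.01, and 47.9% of all 9153 features were below, with a median of 0.00. No member was lower by 0.32 or more (1.64% of all features), 1 was higher by that much (2.29%), and none reached 2-fold (0.951%). The pooled reads gave a log2 ratio of 0.02 (0.01 to 0.03) over all 31 members and 0.00 (−0.01 to 0.01) without Rrm2. Of the single genes Hells was again the lowest, at 56.6 FPKM under LncHSC-2 knockdown against 62.6 in the control library (−0.14, −0.21 to −0.08). Cdc45 was at 35.0 against 37.9 FPKM (−0.11). Apart from Rrm2 the highest were Gins2 at 40.7 against 37.6 FPKM (0.11, −0.03 to 0.25), Lig1 at 69.2 against 64.7 FPKM (0.10, 0.04 to 0.16) and Prim1 at 61.9 against 58.2 FPKM (0.09). The licensing genes had a median of −0.01, with Cdt1 lowest at −0.05 and Mcm3 highest at 0.04. For 24 of the 31 members the counting interval included 0, as for 74.4% of all features. In LncHSC-1 against control it included 0 for 9 of the 31, against 60.2% of all features. It lay below 0 for 21 of the 31, against 24.8% of all features.

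Both of these comparisons use the same control library. Setting the LncHSC-1 library directly against the LncHSC-2 library leaves the control out. There 28 of the 31 members were lower in the LncHSC-1 library, with a median of −0.10, against 59.5% of all features and a median of −0.03. None differed by 0.32 or more, where 2.52% of all features were lower and 3.3% higher by that much, and none was past 2-fold, against 1.15%. Pcna stood furthest down, at 240.3 FPKM under LncHSC-1 knockdown against 286 in the LncHSC-2 library (−0.25, −0.29 to −0.20), followed by Pola1 (−0.24), Tyms (−0.23), Slbp (−0.21) and Lig1 (−0.21). E2f1 was the highest, at 24.0 against 21.98 FPKM (0.12, 0.02 to 0.24). This comparison shares the LncHSC-1 library with the first one, so they do not count as 2 separate observations.

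The scale of the files bears on these directions. With the deposited count columns in place of FPKM, the median of all features of the LncHSC-2 library moved to −0.14 against control, and that of the members to −0.14 with it. On that scale the members' median in LncHSC-1 against LncHSC-2 became 0.03, with the median of all features at 0.12. Relative to the median of all features the values hardly differed between scales. Taking off that median removes any factor that applies to a whole library, so this likeness was largely fixed in advance and is no check of the result. The members stood at −0.08 in LncHSC-1 against control by either measure, at 0.00 in LncHSC-2 against control by either measure, and at −0.08 in LncHSC-1 against LncHSC-2 by either measure.

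**Figure D2:**
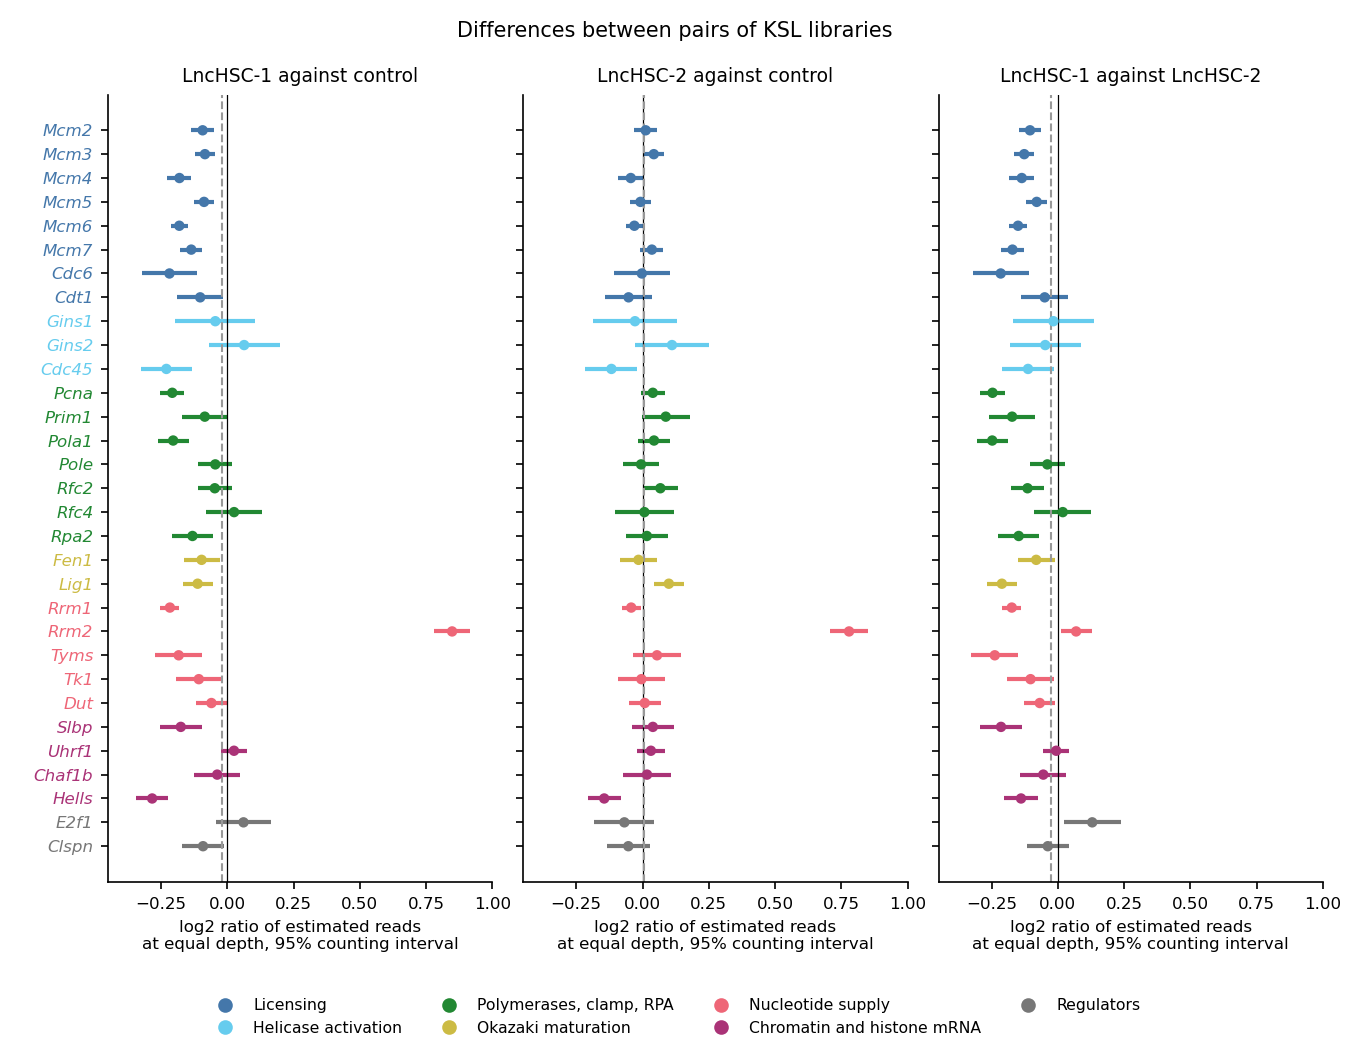
Log2 ratio of estimated reads at equal depth for each gene (points) with exact binomial 95% counting intervals (lines), in 3 panels for LncHSC-1 against control, LncHSC-2 against control and LncHSC-1 against LncHSC-2; colours mark roles and the dashed line is the median FPKM ratio of all features. Most points lie left of 0 in both panels that use the LncHSC-1 library, and Rrm2 lies far to the right in both panels that use the control library.

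Seen over all 3 KSL libraries, 26 of the 31 members had their lowest value in the LncHSC-1 library, as 44.6% of all features did. The median member varied no more than the median feature: its log2 levels spanned 0.13 between the highest and the lowest of the 3 libraries, and the median span of all features was also 0.13. Rfc4 varied least, at 50.5 FPKM in the LncHSC-1, 49.9 in the LncHSC-2 and 49.6 in the control library. Rrm2 spanned 0.84, and the next member, Hells, 0.28.

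Rrm2 was the one member that stood apart. It was at 91.5 FPKM in the LncHSC-1 library, 87.3 under LncHSC-2 knockdown and 50.9 in the control library (chromosome 12, 25393119 to 25399011 in mm9, plus strand). Its log2 ratio to control was 0.84 in the LncHSC-1 library (interval of the read ratio 0.78 to 0.92) and 0.77 in the LncHSC-2 library (0.71 to 0.85). These stood at percentiles 99.1 and 99.2 of all ratios in the same order. Between the knockdown libraries it differed by 0.07 (0.01 to 0.13), so the control library was the one that differed from the other two. No other feature of either table overlaps Rrm2.

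The ratio of the subunits of ribonucleotide reductase followed Rrm2. Rrm1 over Rrm2, in FPKM, was 1.22 in the LncHSC-1 library, 1.44 under LncHSC-2 knockdown and 2.55 in the control library. Among the other 4037 named genes with a mean of at least 20 FPKM, none was at or above Rrm2 in both comparisons. The genes nearest to it by Euclidean distance between the pairs of ratios were Ydjc (0.75 and 0.70), Rprd1b (0.72 and 0.77), Rcc2 (0.66 and 0.64), Taf11 (0.64 and 0.60) and Gclm (0.58 and 0.67), given for LncHSC-1 and then LncHSC-2, each against control. As both ratios have the same control library below the line, a low control value alone places a gene in this group.

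The other genes of the replication pathway were also mostly lower in the LncHSC-1 library. Of 64 further genes for origin recognition, polymerase subunits, fork factors, S phase cyclins and E2F factors, 61 had a mean of at least 5 FPKM. Of these 49 were lower in the LncHSC-1 library than in control (80.3%, against 56.1% of all features), with a median of −0.12. None was lower by 0.32 or more (2.13% of all features) and 1 was higher by that much (3.7%). Among the lowest were the S phase cyclin Ccne2 (−0.29), the polymerase epsilon subunit Pole4 (−0.25) and the fork protection factor Tipin (−0.24). The highest were Pole3, at 60.6 FPKM under LncHSC-1 knockdown against 46.9 in the control library (0.36), and Pold4, at 22.8 against 19.1 FPKM (0.25).

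In the LncHSC-2 library 45 of these 61 genes were below control, with a median of −0.03. Of all features 47.9% were, with a median of 0.00. Ccne2 stood apart there, at 8.56 FPKM under LncHSC-2 knockdown against 16.1 in the control library (−0.84, −1.06 to −0.77). Pole3 (0.47) and Pold4 (0.45) were the highest again. Both had their lowest value in the control library, as Rrm2 did and as 31.1% of all features did. Their knockdown libraries lay further apart than those of Rrm2. LncHSC-1 against LncHSC-2 was −0.11 for Pole3 and −0.20 for Pold4, against 0.07 for Rrm2. In LncHSC-1 against LncHSC-2 48 of the 61 genes were lower, with a median of −0.09, against 59.5% of all features and a median of −0.03.

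Mitosis genes lay at nearly the same place as the S phase members. Of 38 mitosis genes 32 were lower under LncHSC-1 knockdown than in the control library (84.2%, against 56.1% of all features), with a median of −0.09. They were led by the cytokinesis gene Ect2 and the centromere histone Cenpa (both −0.31). In the LncHSC-2 library 20 of 38 were lower than control (52.6%, against 47.9% of all features), with a median of −0.02. The G1 list holds cyclin D, CDK inhibitor and retinoblastoma family genes. Of its 16 measured genes 11 were lower in the LncHSC-1 library than in control, with a median of −0.07. That is 68.75%, nearer to the 56.1% of all features. The S phase members, at −0.10, lay between these medians and that of the other replication genes.

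Markers of the B lineage and of monocytes and macrophages also differed in the LncHSC-1 library, more than those of the other marker lists. Against control the median was −0.02 for 12 stem and progenitor markers and −0.03 for 5 mature granulocyte markers. It was 0.08 for 5 immature granulocyte markers and 0.11 for 6 red cell markers. None of these, all with a mean of at least 5 FPKM, differed by 0.32 or more in that library. Of all features 2.13% were lower and 3.7% higher by that much. All 6 B lineage markers with a mean of at least 5 FPKM were higher there than in control by 0.32 or more on the log2 scale, and the 10 markers summed to 107 FPKM in the LncHSC-1, 61.9 in the LncHSC-2 and 59.0 in the control library, with Igll1 at 0 in the control library. All 5 monocyte and macrophage markers at that level were higher, 4 of them by 0.32 or more, and the 9 found summed to 215, 137 and 128 FPKM. The 31 S phase genes summed to 2262, 2469 and 2417 FPKM. The sort took lineage-negative cells, a gate meant to remove mature B cells and monocytes. In a bulk sample fewer cells of a type and less RNA per cell cannot be told apart. The part of B lineage cells, monocytes and macrophages in the lower S phase values was not tested.

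**Figure D3:**
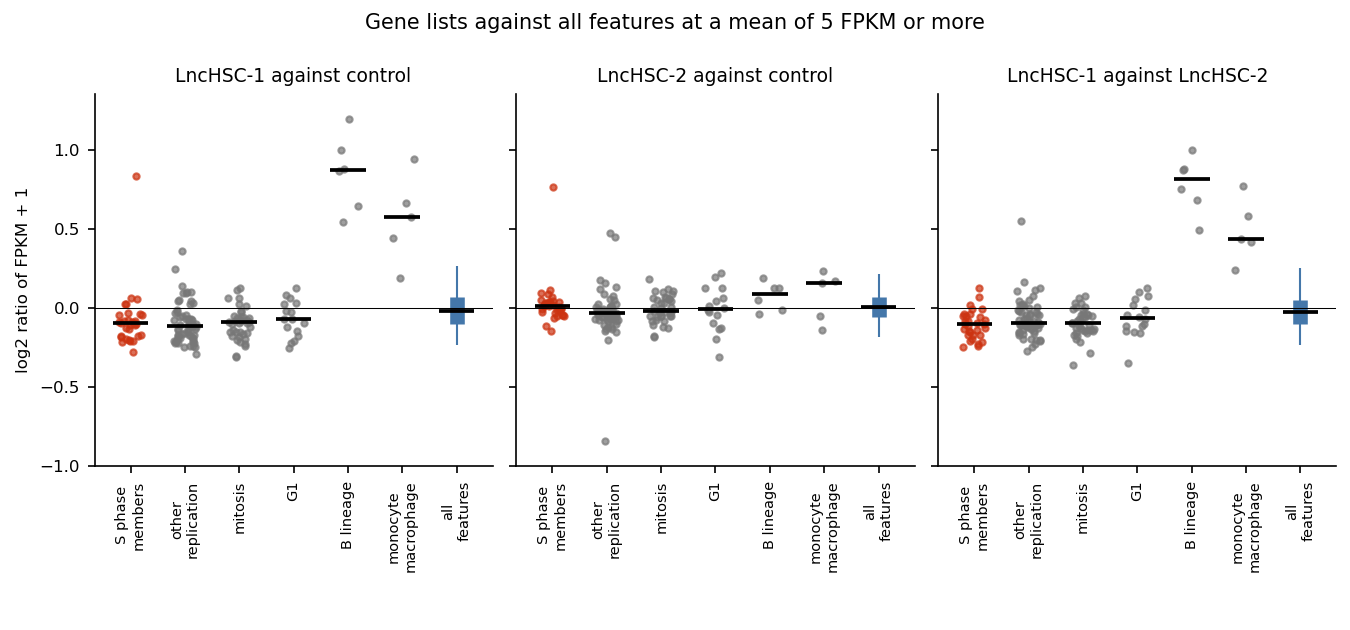
Log2 ratio of FPKM + 1 for every listed gene with a mean of at least 5 FPKM (points) and the median of each list (black bar), in 3 panels by comparison; the blue box and line span the middle 50% and 90% of all 9153 features. In LncHSC-1 against control the S phase, other replication, mitosis and G1 medians lie at −0.10, −0.12, −0.09 and −0.07, and the B lineage and monocyte medians at 0.87 and 0.57. The mean takes in the LncHSC-1 library, where 6 B lineage markers reached 5 FPKM, against 4 in control.

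Sequences upstream of the members were read for the motifs of cell cycle factors, since genes of this pathway are known to be switched on together by E2F. RefSeq promoters of the build GRCm38.p6, from 250 bases before to 50 bases after each annotated start, were matched by symbol for 26 of the 31 members; Mcm4, Gins1, Gins2, Pole and Rfc2 had no entry. The E2F motif was searched on both strands as TTTCCCGC, TTTCGCGC, TTTGCCGC and TTTGGCGC, and its core as TTCCCGC, which the first of the octamers contains. At least 1 octamer stood in the promoters of 11 of the 26 members (42.3%), against 2.6% of all 27025 genes with a promoter in the table. The core was found in 12 members (46.2%), against 5.29% of all genes. An octamer also stood in 36% of 50 other replication genes and in 18.2% of 11 G1 genes with a promoter. The members' promoters held a median of 21.5 CG pairs and 59.8% G or C, against 7 and 52.8% over all genes. Every octamer searched contains CG, and the shares were not matched for this.

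Promoters of 6 members are shown: 3 helicase genes that each hold more than 1 octamer, Hells, the lowest member in LncHSC-1 against control, and both reductase genes, where Rrm1 holds a core and Rrm2 neither motif. Capitals mark E2F octamers and cores on either strand, and the sequences run 5′ to 3′ along the gene. Mcm3 is chr1:20820263-20820562 on the minus strand, Mcm5 is chr8:75109259-75109558 on the plus strand and Mcm6 is chr1:128359656-128359955 on the minus strand. Hells is chr19:38930740-38931039, Rrm1 is chr7:102441445-102441744 and Rrm2 is chr12:24708004-24708303, all on the plus strand.
Mcm3: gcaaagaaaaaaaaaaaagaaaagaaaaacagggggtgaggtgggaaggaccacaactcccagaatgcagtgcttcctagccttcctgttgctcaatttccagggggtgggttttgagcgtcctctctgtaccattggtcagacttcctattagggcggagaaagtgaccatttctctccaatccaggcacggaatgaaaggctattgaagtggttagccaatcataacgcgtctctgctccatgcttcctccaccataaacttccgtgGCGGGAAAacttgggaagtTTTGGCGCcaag
Mcm5: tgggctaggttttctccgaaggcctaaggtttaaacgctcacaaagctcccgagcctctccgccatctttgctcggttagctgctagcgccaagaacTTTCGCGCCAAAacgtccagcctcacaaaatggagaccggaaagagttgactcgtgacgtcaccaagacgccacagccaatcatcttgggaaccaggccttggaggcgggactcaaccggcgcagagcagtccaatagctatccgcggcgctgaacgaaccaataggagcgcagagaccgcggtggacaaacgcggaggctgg
Mcm6: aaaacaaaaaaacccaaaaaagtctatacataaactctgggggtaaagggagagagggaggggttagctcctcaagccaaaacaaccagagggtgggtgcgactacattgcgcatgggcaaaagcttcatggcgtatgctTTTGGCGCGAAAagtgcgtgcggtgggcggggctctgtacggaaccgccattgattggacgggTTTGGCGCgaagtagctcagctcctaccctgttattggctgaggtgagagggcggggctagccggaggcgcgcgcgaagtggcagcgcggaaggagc
Hells: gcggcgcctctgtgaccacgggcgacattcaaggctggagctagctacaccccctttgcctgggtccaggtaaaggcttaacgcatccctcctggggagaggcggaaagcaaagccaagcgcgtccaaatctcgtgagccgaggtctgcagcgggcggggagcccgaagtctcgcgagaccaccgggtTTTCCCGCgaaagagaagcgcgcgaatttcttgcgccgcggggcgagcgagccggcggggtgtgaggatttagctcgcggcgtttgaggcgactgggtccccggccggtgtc
Rrm1: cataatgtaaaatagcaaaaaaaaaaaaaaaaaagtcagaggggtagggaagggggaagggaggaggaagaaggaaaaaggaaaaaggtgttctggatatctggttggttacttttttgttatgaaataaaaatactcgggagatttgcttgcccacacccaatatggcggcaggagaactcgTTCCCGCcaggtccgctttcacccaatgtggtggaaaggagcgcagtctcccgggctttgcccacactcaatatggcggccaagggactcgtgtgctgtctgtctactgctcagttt
Rrm2: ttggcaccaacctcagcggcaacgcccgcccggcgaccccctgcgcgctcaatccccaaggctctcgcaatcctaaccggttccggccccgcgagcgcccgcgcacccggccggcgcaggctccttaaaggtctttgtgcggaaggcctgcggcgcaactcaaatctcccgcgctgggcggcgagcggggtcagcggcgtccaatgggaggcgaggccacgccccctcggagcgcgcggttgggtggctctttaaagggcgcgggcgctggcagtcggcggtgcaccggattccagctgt

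In Mcm5 and in Mcm6 an octamer on one strand overlaps an octamer on the other, which gives the longer capital runs above; these pairs begin 153 and 110 bases before the annotated start. Mcm3 has its octamers after the start, at 20 and 39 bases, and Hells has one 62 bases before it. Rrm1 has a core but no octamer. None of these letters is in the Rrm2 window, nor in those of Mcm2, Pcna, Tyms, Cdc45, Slbp, Fen1, Tk1, E2f1 or Dut; this says only that the searched words are not there. The median log2 ratio of LncHSC-1 against control was −0.11 for the 11 genes with an octamer and −0.10 for the 15 without. Of these genes 10 of 11 and 12 of 15 were lower, against 56.1% of all features. In LncHSC-2 against control the medians were −0.003 and 0.01, with 6 of 11 and 5 of 15 lower, against 47.9% of all features. In LncHSC-1 against LncHSC-2 the median was −0.14 with an octamer, 11 of 11 lower, and −0.10 without, 12 of 15 lower, against 59.5% of all features. Whether the genes with and without an octamer differ was not tested.

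The motif known from mitosis genes was found in few members. The CHR element, searched as TTTGAA and TTCGAA on both strands, stood in the promoters of 4 of 26 members (15.4%), against 78.8% of 33 mitosis genes and 21.7% of all genes. An E2F octamer stood in 6.06% of the mitosis genes. The NF-Y box, CCAAT on either strand, was found in 15 of 26 members (57.7%), 75.8% of the mitosis genes and 41.1% of all genes. The GC box, GGGCGG on either strand, was found in 73.1% of the members, 84.8% of the mitosis genes and 38.2% of all genes. A match is a description of the letters and does not show that a factor is bound.

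**Figure D4:**
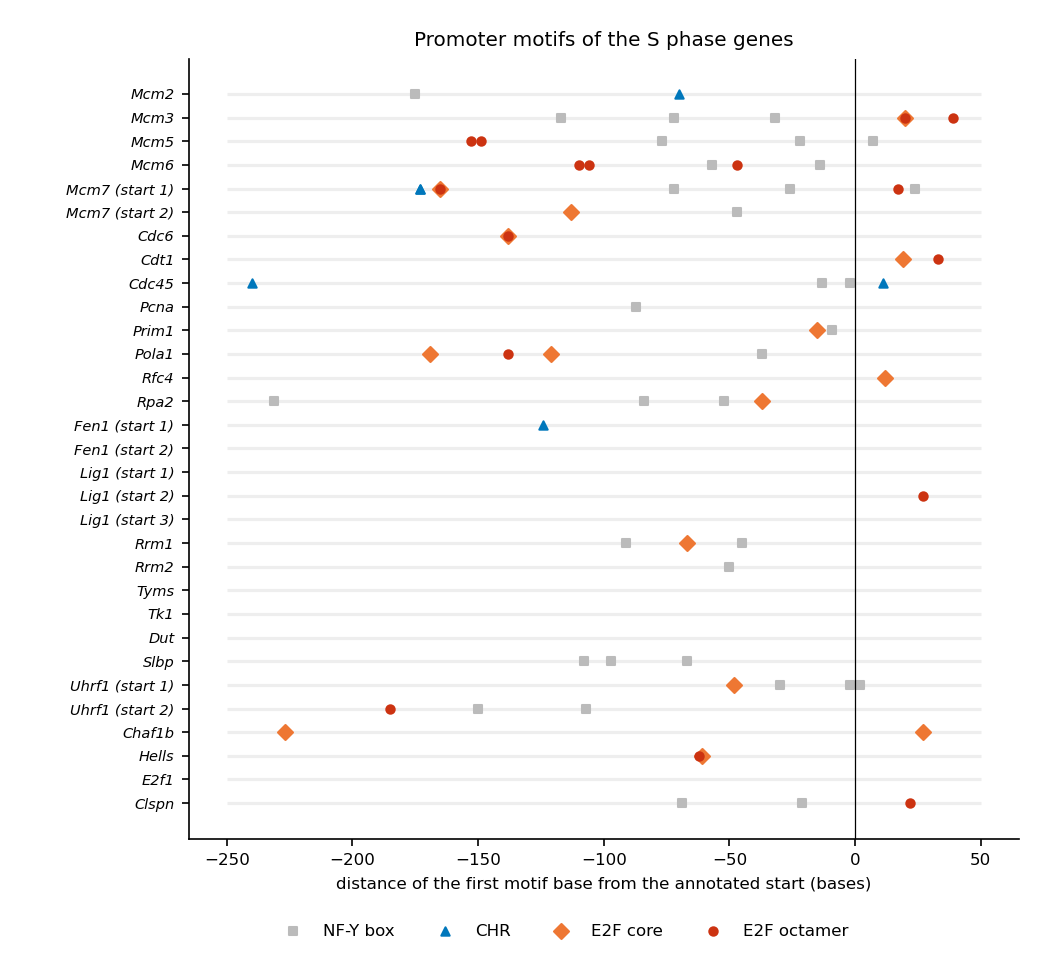
Position of the first base of each motif match relative to the annotated start, for the promoters of 26 S phase genes (1 row per annotated start, ordered by role as in the other plots). Red circles are E2F octamers, orange diamonds the E2F core, blue triangles CHR elements and grey squares NF-Y boxes; octamers stand in 11 of the 26 genes, including Mcm3, Mcm5, Mcm6 and Mcm7, and none in Rrm2.

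Granulocytes held low but measurable levels of all 31 genes. The mean of the technical replicates was at least 1 FPKM for all 31, as for 10050 of all 34315 features. It was at least 5 FPKM for 13, against 17.7% of all features. The median member was at 4.18 FPKM. The replicates differed little, with a median absolute log2 difference of 0.06 between them and the widest gap, 0.26, at Gins1, which was at 1.37 FPKM in replicate 1 and 1.146 in replicate 2. The FPKM of the granulocyte and of the KSL tables were scaled differently by the authors, so the libraries are compared by rank and by ratios within a library, without a fold.

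Rfc2 was by far the highest S phase gene in granulocytes. It was at 36.9 and 35.4 FPKM in the technical replicates, the 95.8th percentile, close to its 98.2nd percentile in control KSL cells. Its partner Rfc4 was at 2.32 and 2.29 FPKM. Subunits of one complex thus stood far apart: Rfc2 over Rfc4 was 15.9 and 15.5 in the granulocyte replicates, against 2.14, 2.35 and 2.25 in the LncHSC-1, LncHSC-2 and control KSL libraries. No other feature of either table overlaps Rfc2, while Rfc4 overlaps the neighbouring gene Eif4a2 by 185 bases on the other strand.

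Other members with a high rank in granulocytes were Slbp, Pcna, Rrm2 and Cdc45. Slbp was at 18.1 and 17.0 FPKM and had rank 2 among the 31, against rank 13 in control KSL cells. Pcna was at 15.98 and 16.5 FPKM, rank 3 in granulocytes and rank 1 in control KSL cells. Rrm2 was at 14.9 and 14.1 FPKM, rank 4 against rank 19 in control KSL cells and rank 9 in each knockdown library, and there exceeded Rrm1, which was at 8.90 and 8.67 FPKM. Rrm1 over Rrm2 was 0.599 and 0.613 in the granulocyte replicates, below the 1.22 to 2.55 of the KSL libraries. Cdc45 was at 9.14 and 8.70 FPKM, rank 6 against rank 23.

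The helicase genes lay within a narrow range in the granulocytes. Mcm6 was again highest, at 10.2 and 10.0 FPKM, and Mcm7, Mcm5 and Mcm4 lay between 7.495 and 8.32 FPKM in both replicates. Mcm3 was at 6.33 and 6.43 FPKM, and Mcm2 lowest at 4.68 and 4.67 FPKM. Mcm6 stood less far above Mcm4 than in KSL cells: Mcm6 over Mcm4 was 1.29 and 1.34 in the granulocytes and 2.56, 2.59 and 2.56 in the LncHSC-1, LncHSC-2 and control KSL libraries.

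The members whose percentile in granulocytes was furthest below that in control KSL cells were Hells, Dut, Gins2 and Chaf1b. Hells was at 1.65 and 1.86 FPKM in the granulocyte replicates, the 74.6th percentile, against the 96.0th percentile in control KSL cells. Dut was at 2.04 and 2.27 FPKM, the 76.0th percentile against the 97.4th. Gins2, which overlaps the neighbour Gse1 by 118 bases on the other strand, was at 1.30 and 1.18 FPKM. Chaf1b was at 1.87 and 2.12 FPKM, the 75.5th against the 94.4th percentile. Cdc6 was lowest in both cell types, at 1.13 and 1.09 FPKM in the granulocytes. Across the 31 genes the log2 levels in granulocytes and control KSL cells had a Pearson correlation of 0.680 and a Spearman correlation of 0.747, a description of genes that are not independent.

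Mitosis genes stood above S phase genes in the granulocytes and below them in the KSL cells. The median of the 38 mitosis genes was 1.69 times that of the 31 S phase genes in the granulocytes, and 0.729, 0.691 and 0.692 times in the LncHSC-1, LncHSC-2 and control KSL libraries. In granulocytes 27 of 38 mitosis genes were at 5 FPKM or more, against 13 of 31 S phase genes, with Mki67 at 35.0, Smc4 at 26.8, Top2a at 25.2 and Ube2c at 18.6 FPKM. All 8 markers of immature granulocytes reached 5 FPKM in the same libraries, summing to 351 and 350.0 FPKM, with Mpo at 61.6 and Prtn3 at 40.2 FPKM. So did 8 of the 9 monocyte and macrophage markers found, which summed to 410.2 and 409.8 FPKM, with Mpeg1 at 200.2 and Cd74 at 49.1 FPKM. Of all features 17.7% reached 5 FPKM. The mature markers summed to 160838 and 163797 FPKM. How much of the S phase transcript came from immature granulocytes, or from monocytes and macrophages, was not tested.

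**Figure D5:**
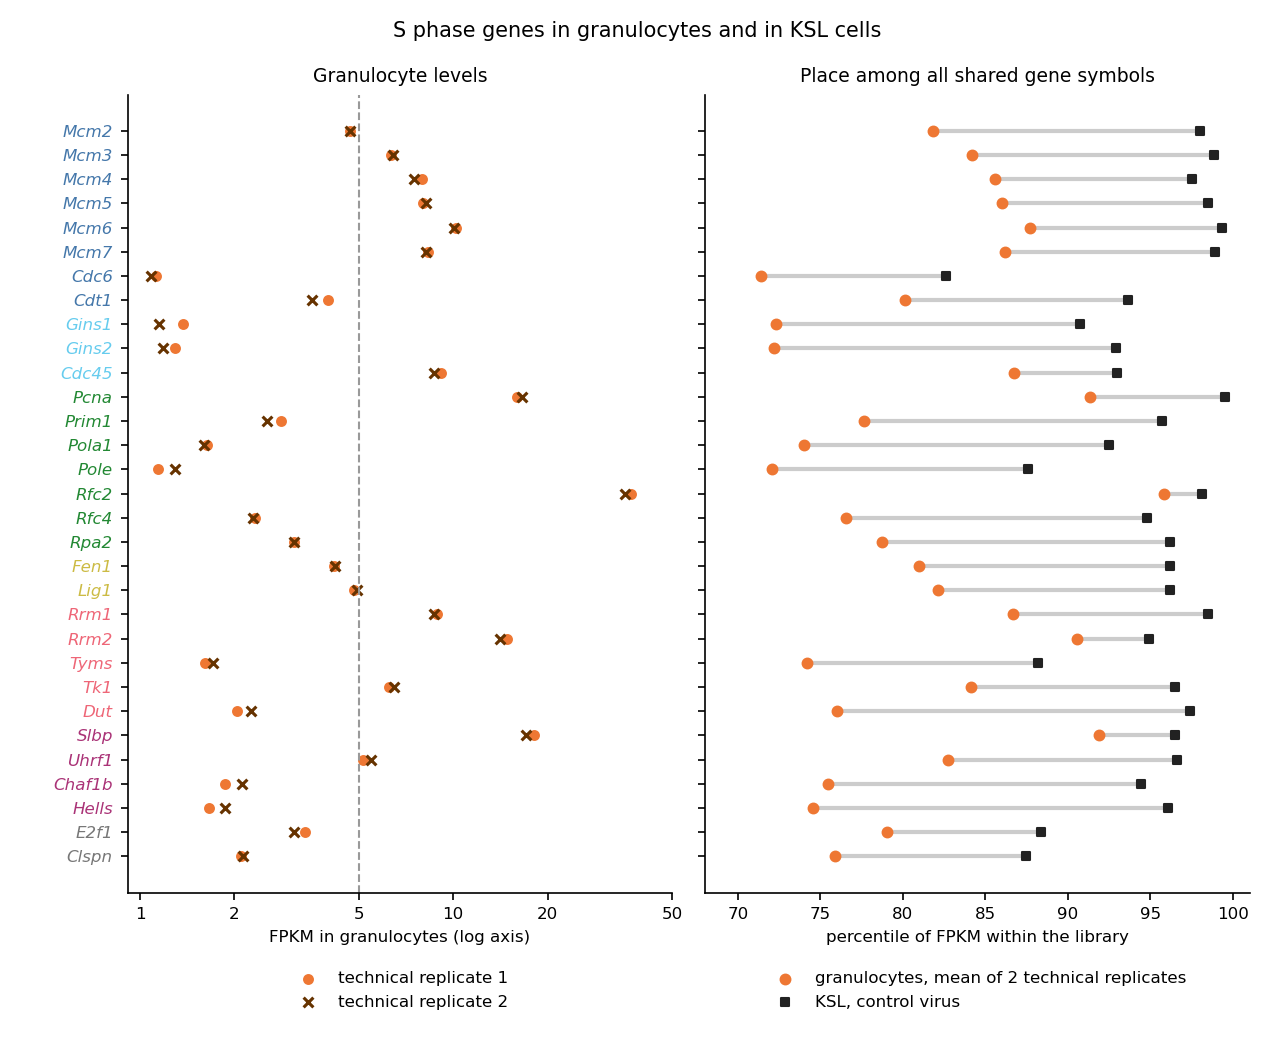
Left, FPKM of each gene in the granulocyte technical replicates on a log axis, with the 5 FPKM level dashed; right, the percentile of each gene within its library for granulocytes (mean of 2 technical replicates) and for control KSL cells. Rfc2, Slbp, Pcna and Rrm2 lie furthest right in granulocytes, and Hells, Dut and Gins2 show the longest gaps between the cell types.

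Some of these values carry a limit of counting. Pcna has a near-identical copy in the tables, Pcna-ps2, listed at 20.7 FPKM in the LncHSC-1, 21.5 in the LncHSC-2 and 19.2 in the control library, and reads may be split between them. In the granulocyte tables, which give single genes, 6 of the 31 members overlap another feature, by 96 to 2400 bases and always on the other strand. Without knowledge of the strand setting, reads in those stretches cannot be assigned.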

How the data were processed

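The series holds 5 RNA sequencing libraries. Per the submitters' processing notes the build is mm9 and DESeq was used; the sources used here do not name the aligner, counter or annotation release. FPKM values as deposited by the authors were the main measure. The deposited count columns of the KSL tables were treated as a signal, because each library's values rise in steps of a constant size; in units of that step, 91.7% to 92.1% of values of at most 20 lay within 0.1 of a whole number, and dividing by the step gave estimated reads. The deposited granulocyte count columns were treated as a score, whole numbers rounded after scaling; in all 18671 features above 0 in both files the score per FPKM is the same.

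The log2 ratio of FPKM + 1 was computed for the 9153 features with a mean of at least 5 FPKM over the KSL libraries; it understates the change of low genes. All 31 members passed this filter in every KSL library. Size limits of 0.32 on the log2 scale and 2-fold were used, with no test, since each group is 1 library. Counting intervals are exact binomial at 95%, carry no pseudocount and were checked on simulated reads. Those reads varied by counting error alone and their true depth was given, so the check covers the computation and not these libraries. Nothing says that the KSL libraries came from separate cultures. The members and lists were chosen with earlier results of these data known. Genes named outside the members come from the 4 highest and 4 lowest ratios of each list, its 4 highest in granulocytes, the 3 most abundant markers of each cell type, and the 5 genes nearest to Rrm2; Igll1, at 0 in 1 library, and Kit were named after their values were seen. Alternatives were other pseudocounts, floors and scalings, each granulocyte replicate left out, depth from read totals (chosen after seeing the data) and, for promoters, the E2F core. Python 3.11.15, pandas 2.3.3, NumPy 2.4.6, SciPy 1.17.1 and matplotlib 3.10.9 were used.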

Additional observations from a re-analysis of the deposited data

How the results depend on the processing

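No paired analysis was possible because each knockdown group had 1 library. Of 93 recomputed values 85 stayed close to the reported one (counts within 1.5 times, KSL medians and pooled ratios within the half-width of the pooled counting interval). Many of these could not move, so the tally says little about how firm the results are. Removing the floor changes no member value, as all members passed it. Another pseudocount cannot change whether a member is lower. The counts of members past the smaller size limit were the same in every setting. With the count columns as deposited, the members' median log2 ratio was −0.14 in LncHSC-2 against control, with 30 of 31 lower, and the median of all features was −0.14. In LncHSC-1 against LncHSC-2 it was 0.034, with 11 of 31 lower, and the median of all features was 0.12. With those columns divided by median-of-ratios factors the members' medians were 0.01 and −0.10. With FPKM divided by such factors the median of LncHSC-1 against LncHSC-2 was −0.093. With depth taken from total estimated reads, an alternative chosen after seeing the data, the pooled ratio was −0.083 in LncHSC-1 against control and −0.097 in LncHSC-1 against LncHSC-2. With a floor of 1 FPKM in place of 5, 31 members passed in granulocytes, as did 10050 of all 34315 features. Without replicate 1 or 2 of the granulocytes 13 members were at 5 FPKM or more in either case, and the median was 4.18 to 4.19 FPKM. With 1 library per group no difference can be set against biological spread.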

Other observations

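The granulocytes also differed from KSL cells in which E2F and G1 genes they held. E2f2, an activator of S phase genes, was the highest of the 64 further replication genes in granulocytes, at 53.6 and 52.4 FPKM in the technical replicates, and stood at 4.15 FPKM in the control KSL library, whereas E2f1 was at 3.38 and 3.11 FPKM in granulocytes and 23.05 FPKM in control KSL cells. Ccnd3, a D-type cyclin, led the G1 list in granulocytes at 210.4 FPKM, followed by the E2F partner Tfdp1 at 71.5 and the CDK inhibitor Cdkn1b at 37.5 FPKM. In the control KSL library the same 3 genes were at 117, 138 and 16.1 FPKM. The FPKM scales of the tables differ, so no fold is given.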
